A study of Mus musculus with 17 samples.

Results

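A set of 10 receptor genes of macrophages was followed across 17 RNA-Seq libraries of peritoneal macrophages (PMs). They are Cd300a, Cd300lb, Cd300ld and Cd300lf of the CD300 family, Pilra, Pirb, Lilrb4a and Sirpa, and Trem1 and Trem2. These 10 genes are the rows of the expression table that carry those symbols, out of 21683 rows in all. The list was chosen from earlier results on these same libraries, in which the response to Tat and to loss of IKKβ was already visible, so the levels and differences given for the 10 genes are descriptions and no p-value is attached to them.

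All PMs came from C57BL/6 mice aged 8 weeks that carried loxP-flanked alleles of Ikbkb, the gene of the NF-κB activating kinase IKKβ. IKKβF/F mice had no Cre, while IKKβΔMye mice also carried 1 knock-in copy of Cre in the lysozyme locus (LysM-Cre), which acts in macrophages and neutrophils. The mice received 1 mL of 3% thioglycollate, an irritant that draws monocytes into the abdominal cavity, and cells were collected 3 days later by the sample labels, a date that differs by 1 day from the methods. After 4 h of attachment the cells were given PBS or 100 nM of recombinant HIV protein Tat for 12 h. The groups were IKKβF/F PMs with PBS (FF PBS, n = 6 libraries), IKKβF/F PMs with Tat (FF Tat, n = 6) and IKKβΔMye PMs with Tat (ΔMye Tat, n = 5). The study describes its replicates as biological replicates of mice, while the labels do not tie libraries to animals. None of the 17 libraries came from ΔMye PMs given PBS. A genotype difference that existed before Tat therefore cannot be told apart from one in the response to it.

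These receptors sit on the surface of myeloid cells and mostly come in pairs with similar outer domains and opposite signals. Inhibitory members carry tyrosine motifs (ITIMs) that recruit the phosphatases SHP-1 and SHP-2, while activating members have short tails and borrow the ITAM of an adaptor, DAP12 (gene Tyrobp) or the Fc receptor γ chain (Fcer1g), which recruits the kinase Syk. Cd300a, Cd300lf, Pilra, Pirb, Lilrb4a and Sirpa encode inhibitory receptors, and Cd300lb, Cd300ld, Trem1 and Trem2 encode receptors that signal through adaptors. Several bind lipids or dying cells, and Sirpa binds CD47, the signal that holds back engulfment.

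The 4 CD300 genes lie within 244.0 kb of chromosome 11 in GRCm38. Cd300a is on the plus strand (chr11:114890041-114904654), and Cd300lb (chr11:114922781-114934386), Cd300ld (chr11:114982274-114989922) and Cd300lf (chr11:115116214-115133992) are on the minus strand. Since these neighbours differed widely in their response, the 120 bases before the RefSeq start of each are shown. They are given in the direction of the gene on GRCm38.p6. The gene spans above are from GENCODE, and for Cd300lb and Cd300ld the last shown bases lie inside those spans. Capitals mark matches on either strand to TATAAA, the TATA box, and to AGGAAGT, a core to which PU.1 and other ETS factors bind.
Cd300lb, chr11:114934372-114934491: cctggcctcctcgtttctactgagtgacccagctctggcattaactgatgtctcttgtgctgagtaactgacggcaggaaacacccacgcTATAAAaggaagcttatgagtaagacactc
Cd300a, chr11:114889921-114890040: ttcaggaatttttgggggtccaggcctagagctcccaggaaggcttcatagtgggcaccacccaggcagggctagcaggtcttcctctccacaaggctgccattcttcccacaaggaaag
Cd300ld, chr11:114989887-114990006: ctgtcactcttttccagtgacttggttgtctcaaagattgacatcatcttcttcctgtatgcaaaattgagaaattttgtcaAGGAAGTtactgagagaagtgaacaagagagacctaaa
Cd300lf, chr11:115133993-115134112: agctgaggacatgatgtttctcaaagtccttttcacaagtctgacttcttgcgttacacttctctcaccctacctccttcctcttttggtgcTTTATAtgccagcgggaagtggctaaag
Cd300lb held TATAAA starting 30 bases before its start, and Cd300lf held it on the opposite strand 28 bases before. Over the 250 bases before the start and on both strands, 2 of the 8 members with a promoter sequence held TATAAA, against 12.4% of 32851 mouse promoters. AGGAAGT was found in 3 of 8 (Cd300ld, Pirb and Trem1), against 7.69% of promoters. TGANTCA allows any middle base and is looser than the AP-1 motif. It was found in Trem2 as TGAATCA, against 6.75% of promoters with any form of it. An NF-κB consensus was found in Cd300a, 169 bases before its start, against 3.9%. Lilrb4a and Sirpa had no promoter entry.

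The second set of sequences concerns Lilrb4a (chr10:51490956-51496611, plus strand), which encodes the inhibitory receptor gp49B. A second annotated gene, Gm49339 (chr10:51480612-51496613, plus strand), starts upstream in Lilr4b (chr10:51480632-51486703), the neighbouring gene of gp49A, and runs on into the exons of Lilrb4a. The coding parts of the first 2 coding exons are shown, with no capitals since no base differs. In GRCm38 the first stretch is at chr10:51491018-51491051 for Lilrb4a and at chr10:51480720-51480753 for Gm49339, and the second is at chr10:51491197-51491232 for both.
Lilrb4a: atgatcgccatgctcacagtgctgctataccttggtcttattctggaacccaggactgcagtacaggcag
Gm49339: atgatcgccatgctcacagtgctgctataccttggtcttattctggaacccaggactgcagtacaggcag
These 70 bases were the same although their first exons lie in different genes. The transcripts shown are 1 of several for each gene in GENCODE. All 1005 of their coding bases are equal, and 8 of 9 coding exons have the same coordinates. Every one of the 1351 31-base sequences of the Lilrb4a transcript also occurs in Gm49339.

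Values are TPM (transcript abundance scaled for transcript length and library total), and differences are on log2(TPM + 0.1) with their standard errors from limma. The median over the 10451 genes tested was -0.65 for FF Tat against FF PBS and 0.22 for ΔMye Tat against FF Tat. Scaling each library by the median ratio moved these medians to -0.03 and 0.01, so the scaled difference is given wherever its direction or call differs. Both comparisons contain the FF Tat libraries, and their values are therefore set side by side and not compared. The cells carried macrophage markers, with 9 of 9 at a mean of at least 1 TPM in each group. The macrophage sum was 25840 to 26853 TPM in FF PBS, 10325 to 10906 TPM in FF Tat and 8038 to 8358 TPM in ΔMye Tat, most of it Lyz2, the gene that carries the Cre. The 5 T cell markers summed to 3.2 to 7.85, 1.82 to 2.95 and 6.78 to 9.17 TPM in the same order, and the 4 monocyte markers to 56.6 to 80.4, 143 to 169.7 and 115 to 133 TPM. Neutrophil markers summed to 66.7 to 78.8, 68.4 to 80.6 and 91.6 to 109.6 TPM, mostly S100a8, and Elane was at 0 in every library. Mast cell markers summed to 33.5 to 46.3, 32.3 to 44.0 and 24.9 to 31.6 TPM, B cell markers to 12.4 to 25.7, 11.3 to 15.0 and 8.33 to 13.0 TPM, and NK cell markers to 4.21 to 8.11, 4.07 to 6.21 and 4.97 to 7.78 TPM. Mesothelial markers summed to at most 4.75 TPM in any library, and eosinophil and dendritic cell markers to at most 2.47 and 2.19 TPM. The part of these cells in the receptor values was not tested, and in bulk RNA fewer cells of a type and less RNA per cell cannot be told apart. Ikbkb itself was 23.2 ± 1.44 TPM (SD, n = 6) in FF Tat and 16.4 ± 2.59 TPM (SD, n = 5) in ΔMye Tat without overlap, a weak check because the deletion covers part of the gene.

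**Figure D1:**
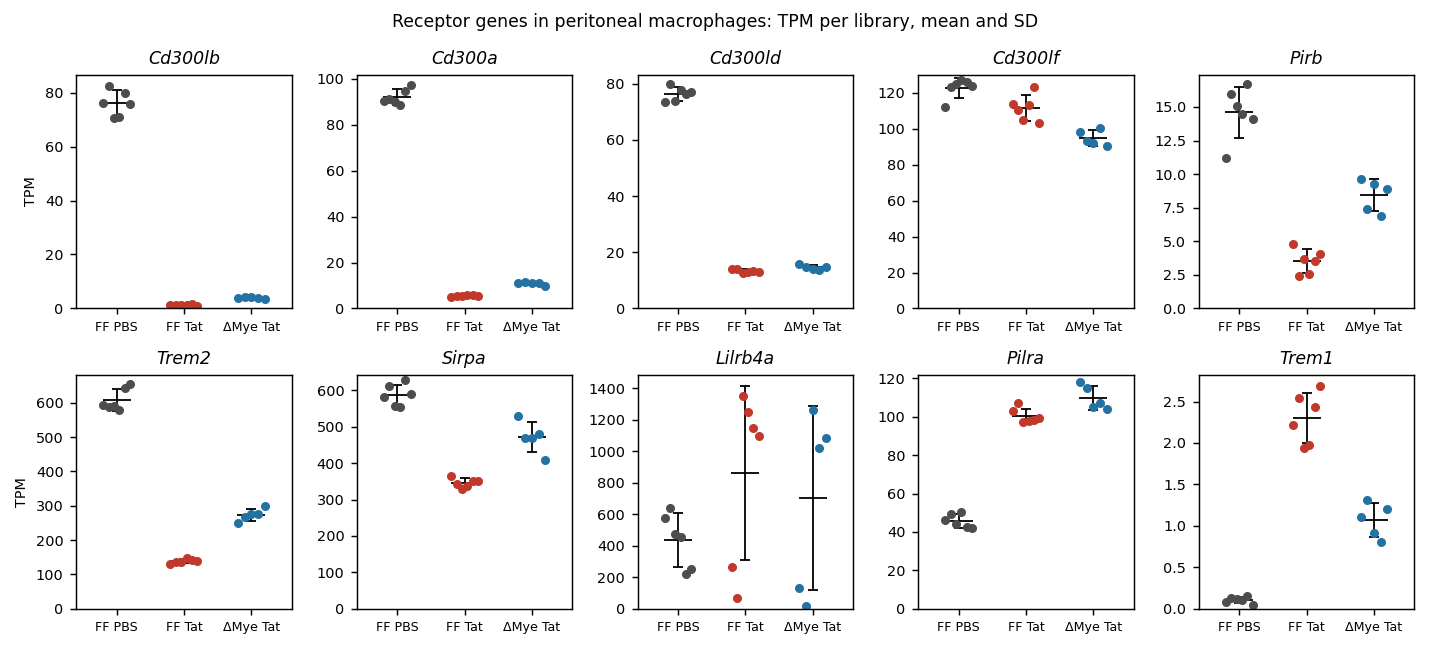
TPM of each receptor gene in each library (y axis, linear from 0, a separate scale per gene) for FF PBS, FF Tat and ΔMye Tat; points are libraries, the horizontal bar is the mean and the whiskers are the SD. Cd300lb, Cd300a and Cd300ld lie between 70.6 and 97.3 TPM with PBS and at 15.7 TPM or less in the Tat libraries of both genotypes, Cd300lf stays between 90.6 and 127 TPM, and Lilrb4a scatters widely within each group.

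Among the 10 receptor genes, 5 passed as lower in FF Tat than in FF PBS (limma adjusted p below 0.01 with more than a 3-fold change, namely Cd300lb, Cd300a, Cd300ld, Trem2 and Pirb), where 19.4% of all tested genes were. Trem1 was higher, where 5.21% of all genes were. The libraries of both groups did not overlap for 8 of the 10, against 77.6% of all genes. The median difference of the 10 was -1.41. The choice of the list used this contrast, so nothing is read from these counts. After median-ratio scaling 3 were lower (Cd300lb, Cd300a and Cd300ld) and 2 higher (Trem1 and Pilra), with a median of -0.78.

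Between ΔMye Tat and FF Tat, where only the limma adjusted p had to be below 0.01, 5 of the 10 were higher in ΔMye Tat (Cd300lb, Pirb, Cd300a, Trem2 and Sirpa), where 38.8% of all genes were. Trem1 and Cd300lf were lower, where 8.87% of all genes were. The groups did not overlap for 7 of the 10, against 36.6% of all genes. The median difference of the 10 was 0.29, and 0.06 after scaling. This contrast too was in view when the list was made.

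Cd300lb encodes an activating receptor that pairs with DAP12 and recognises lipids on dying cells. In FF PBS its lowest, median and highest libraries were at 70.6, 76.0 and 82.6 TPM, and in FF Tat at 0.987, 1.26 and 1.53 TPM. The 5 ΔMye Tat libraries were at 4.04, 4.23, 4.25, 3.84 and 3.61 TPM. Every ΔMye Tat library was above every FF Tat library, and all of the Tat libraries were far below those with PBS. The FF Tat mean was 1.66% of the FF PBS mean, a difference of -5.81 ± 0.09 (SE) on the log2 scale, and the ΔMye Tat mean was 5.25% of it. ΔMye Tat was 1.59 ± 0.09 (SE) above FF Tat, a ratio of means of 3.16. With a pseudocount of 1 instead of 0.1 the differences were -5.09 and 1.14. None of its 31-base sequences occurs in another gene.

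Cd300a encodes an inhibitory receptor for phosphatidylserine and phosphatidylethanolamine. Its lowest, median and highest libraries were at 88.6, 91.0 and 97.3 TPM in FF PBS and at 4.98, 5.45 and 6.04 TPM in FF Tat. The ΔMye Tat libraries were at 11, 11.6, 11.3, 10.9 and 9.74 TPM. The groups were fully separated, with ΔMye Tat between the others and close to FF Tat. The FF Tat mean was 5.99% and the ΔMye Tat mean 11.8% of the FF PBS mean. The log2 difference was -4.04 ± 0.05 (SE) for Tat and 0.97 ± 0.06 (SE) for ΔMye Tat against FF Tat.

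Cd300ld encodes an activating receptor that uses the Fc receptor γ chain and, in mice, is a relative of the norovirus entry receptor encoded by Cd300lf. Its lowest, median and highest libraries were at 73.5, 76.8 and 79.9 TPM in FF PBS and at 12.7, 13.3 and 14.1 TPM in FF Tat. In ΔMye Tat the values were 15.7, 14.6, 14.2, 13.8 and 14.9 TPM. Tat libraries of both genotypes lay together and overlapped. The log2 difference for Tat was -2.50 ± 0.04 (SE), and between the genotypes it was 0.13 ± 0.04 (SE), which turned to -0.09 after scaling.

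Cd300lf encodes an inhibitory receptor for phosphatidylserine and ceramide. Its lowest, median and highest libraries were at 112, 125 and 127 TPM in FF PBS and at 103, 112 and 123 TPM in FF Tat, and these groups overlapped. In ΔMye Tat it was at 98.2, 93.2, 91.9, 100.4 and 90.6 TPM, each below the lowest FF Tat library. The difference for Tat was -0.14 ± 0.04 (SE) as deposited and -0.10 after quantile normalization, but 0.49 after median-ratio scaling, so its direction depended on the scale. Against FF Tat, ΔMye Tat was -0.23 ± 0.04 (SE), and -0.45 after scaling.

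Ratios within a library do not change with the scaling of that library. The ratios below were chosen after the values were seen. Cd300lb stood at 0.62 ± 0.0502 (SD, n = 6) of Cd300lf in FF PBS, at 0.0113 ± 0.0011 (SD, n = 6) in FF Tat and at 0.0422 ± 0.0035 (SD, n = 5) in ΔMye Tat. Cd300a stood at 0.751 ± 0.0393, 0.0496 ± 0.00397 and 0.115 ± 0.0077 of Cd300lf in the same groups, and Cd300ld at 0.623 ± 0.0252, 0.12 ± 0.00688 and 0.154 ± 0.0101. In each of these 3 ratios the groups did not overlap. Taken as a pool, the 4 genes summed to 367 ± 10.3 TPM in FF PBS, 132 ± 7.54 TPM in FF Tat and 124 ± 4.51 TPM in ΔMye Tat. Cd300lf made up 33.4% ± 1.16 of that sum with PBS, 84.7% ± 0.495 in FF Tat and 76.2% ± 0.947 in ΔMye Tat (SD, n = 6, 6 and 5). Cd300lb went from 20.7% ± 1.02 to 0.956% ± 0.0977 and 3.21% ± 0.234 in the same order. These shares hold for the 4 genes only and not for the whole CD300 family. Outside the pool, Cd300c2 averaged 165, 67.8 and 87.4 TPM and Cd300ld3 48.6, 23.6 and 35.3 TPM in FF PBS, FF Tat and ΔMye Tat.

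**Figure D2:**
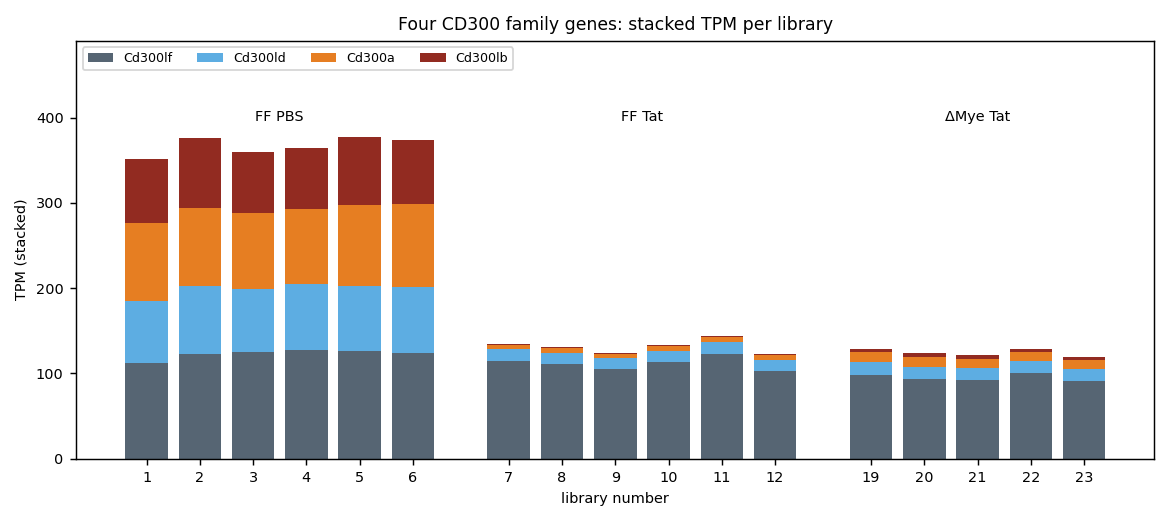
Stacked TPM (y axis) of Cd300lf, Cd300ld, Cd300a and Cd300lb in each of the 17 libraries, numbered on the x axis and grouped as FF PBS, FF Tat and ΔMye Tat. With PBS the 4 genes share the sum, while in the Tat libraries Cd300lf holds 75.4% to 85.5% of it. The sum leaves out other CD300 genes, such as Cd300c2 and Cd300ld3.

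Trem2 encodes a DAP12-coupled receptor for lipids and apolipoproteins that is known from lipid-laden macrophages. It had the highest mean of the 10 genes in FF PBS, with lowest, median and highest libraries at 580.3, 592 and 655 TPM, although its range overlapped that of Sirpa. In FF Tat it was at 129.6, 138 and 148 TPM, and the ΔMye Tat libraries were at 249.5, 266, 277, 275 and 298 TPM. The 3 groups did not overlap. The FF Tat mean was 22.8% and the ΔMye Tat mean 44.9% of the FF PBS mean. The difference for Tat was -2.13 ± 0.04 (SE), or -1.49 after scaling, which is below a 3-fold change, and the difference of ΔMye Tat from FF Tat was 0.97 ± 0.04 (SE). Trem2 stood at 0.238 ± 0.00839 of its adaptor gene Tyrobp with PBS, at 0.194 ± 0.00604 in FF Tat and at 0.219 ± 0.0149 in ΔMye Tat (SD, n = 6, 6 and 5). For this ratio the FF PBS and FF Tat ranges were separate, and the ΔMye Tat range overlapped both.

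Trem1, 121.4 kb from end to end with Trem2 on chromosome 17 (chr17:48232768-48246924 and chr17:48346401-48354147, both on the plus strand), encodes a DAP12-coupled receptor that amplifies inflammatory signals. It was nearly silent with PBS, at 0.0465, 0.109 and 0.158 TPM in the lowest, median and highest library. In FF Tat these were 1.94, 2.33 and 2.69 TPM, and in ΔMye Tat the values were 1.11, 1.31, 0.917, 0.8 and 1.2 TPM. The 3 groups did not overlap, and the order was opposite to that of Trem2. Trem1 passed the filter on low values only through its Tat libraries. The difference of FF Tat from FF PBS was 3.57 ± 0.17 (SE) with a pseudocount of 0.1 and 1.58 with a pseudocount of 1. That of ΔMye Tat from FF Tat was -1.05 ± 0.18 (SE). Even with Tat its mean level stayed below that of every other member except Cd300lb in FF Tat, and below all of them in ΔMye Tat.

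Pirb (chr7:3711409-3720391, minus strand) encodes the inhibitory receptor of a pair that binds MHC class I, with the activating PIR-A proteins as partners. Its lowest, median and highest libraries were at 11.2, 14.8 and 16.7 TPM in FF PBS and at 2.41, 3.59 and 4.79 TPM in FF Tat. In ΔMye Tat it was at 9.63, 7.38, 9.29, 6.92 and 8.92 TPM. ΔMye Tat lay between the other groups without overlap, its mean at 57.8% of the FF PBS mean against 24.0% for FF Tat. Between FF Tat and FF PBS it differed by -2.06 ± 0.14 (SE), or -1.43 after scaling and -1.28 after quantile normalization, both below a 3-fold change. ΔMye Tat was 1.27 ± 0.15 (SE) above FF Tat. Of its 31-base sequences 44.1% occur in other genes, 23.7% in Gm14548, so part of its value could belong to a relative. Pira2, a gene of the activating partner, moved alongside and the ratio of Pirb to Pira2 was 0.162 ± 0.0165, 0.22 ± 0.0506 and 0.231 ± 0.0359 in FF PBS, FF Tat and ΔMye Tat. The FF Tat range overlapped both others, and the ΔMye Tat range began just above that of FF PBS.

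Pilra (chr5:137821952-137836281, minus strand) encodes an inhibitory receptor for sialylated glycoproteins. Its lowest, median and highest libraries were at 41.8, 45.2 and 50.6 TPM in FF PBS and at 97.1, 98.8 and 107 TPM in FF Tat. The ΔMye Tat libraries were at 118, 115, 105, 107 and 104 TPM and overlapped those of FF Tat. Tat libraries of both genotypes were above every PBS library, and the FF Tat mean was 2.19 times the FF PBS mean. FF Tat was 1.13 ± 0.05 (SE) above FF PBS, below a 3-fold change, and 1.77 after scaling, above it. The difference of ΔMye Tat from FF Tat was 0.13 ± 0.05 (SE) and turned to -0.09 after scaling. Other genes hold 28.5% of its 31-base sequences, and the largest part of these, 14.0% of its sequences, lies in Zcwpw1. The ratio of Pilra to Pilrb2, a gene of the activating partner, was 2.08 ± 0.0903 with PBS and 3.34 ± 0.233 in FF Tat without overlap, and 3.07 ± 0.255 in ΔMye Tat. To Pilrb1 it was 2.26 ± 0.436, 2.68 ± 0.279 and 2.66 ± 0.11, with overlap.

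Sirpa (chr2:129592835-129632228, plus strand) encodes the inhibitory receptor of CD47. Its lowest, median and highest libraries were at 554, 586 and 628 TPM in FF PBS and at 329, 347 and 366 TPM in FF Tat. In ΔMye Tat it was at 529.7, 470.4, 469, 481 and 410.2 TPM, between the other groups and without overlap with either. FF Tat differed from FF PBS by -0.76 ± 0.05 (SE), or -0.13 after scaling, and that of ΔMye Tat from FF Tat was 0.44 ± 0.05 (SE), or 0.22 after scaling. Cd47 itself moved the other way with Tat. The ratio of Sirpa to Cd47 was 3.64 ± 0.164 (SD, n = 6) in FF PBS, 0.786 ± 0.0488 (SD, n = 6) in FF Tat and 1.17 ± 0.158 (SD, n = 5) in ΔMye Tat, with no overlap between the groups.

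**Figure D3:**
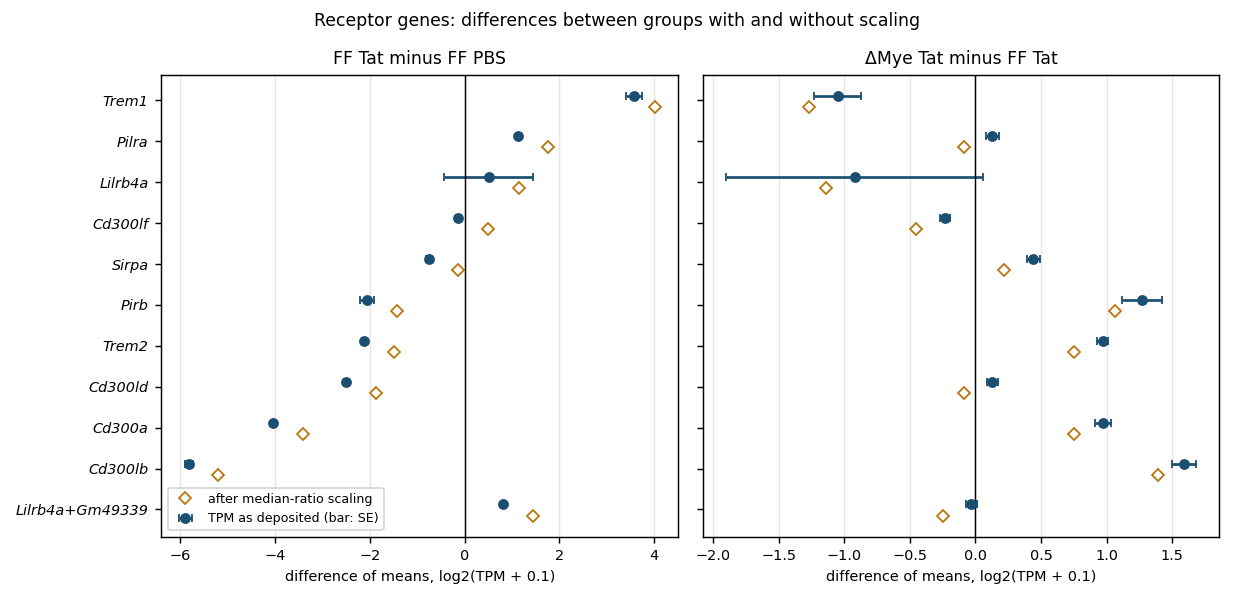
Difference of group means on log2(TPM + 0.1) (x axis) for each receptor gene, FF Tat minus FF PBS on the left and ΔMye Tat minus FF Tat on the right; filled points with SE bars are TPM as deposited and open diamonds are after median-ratio scaling. Cd300lb is lowest on the left at -5.81 and highest on the right at 1.59, and Cd300lf on the left and Cd300ld and Pilra on the right change sign with scaling.

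Lilrb4a varied more within its groups than any other member on the scale of the mean. In FF PBS the 6 libraries were at 576, 638, 474, 455, 220.1 and 254 TPM, in FF Tat at 266, 65.8, 1352, 1251, 1150.2 and 1097 TPM and in ΔMye Tat at 130.2, 14.5, 1260.3, 1023 and 1083 TPM. The SD was 38.6%, 63.8% and 83.0% of the mean, and the highest FF Tat library was 20.5 times the lowest. Listed under its own symbol, Lilrb4a differed by 0.51 ± 0.94 (SE) for Tat and by -0.92 ± 0.98 (SE) for ΔMye Tat against FF Tat. The latter became 0.18 without ΔMye Tat library 20, and all groups overlapped.

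Gm49339, which shares the coding sequence printed above, was high in the libraries in which Lilrb4a was low. It was at 439, 462, 525, 505, 775 and 687 TPM in FF PBS, at 1496, 1656, 489, 503, 598 and 641 TPM in FF Tat and at 1512, 1655, 550.1, 653 and 727 TPM in ΔMye Tat, in the same library order. The 2 lowest Lilrb4a libraries of each Tat group were thus the 2 highest for Gm49339. Lilrb4a took between 0.866% and 73.5% of the sum of both genes over the Tat libraries.

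The sum of both was even. It was 1015, 1099.9, 999, 959.8, 995 and 941 TPM in FF PBS, 1762, 1722, 1840.2, 1754, 1749 and 1737 TPM in FF Tat and 1643, 1669, 1810.5, 1675 and 1809.8 TPM in ΔMye Tat. Its SD was 5.53%, 2.35% and 4.75% of the mean, and every Tat library of either genotype was above every PBS library. Computed on the sum, an alternative added after the data were seen, the difference for Tat was 0.82 ± 0.03 (SE), or 1.45 after scaling, and that of ΔMye Tat from FF Tat was -0.03 ± 0.04 (SE), or -0.25 after scaling. With scaling, but not without it, the genotype difference of the sum passed as lower. How reads were divided between the 2 genes was not tested.

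**Figure D4:**
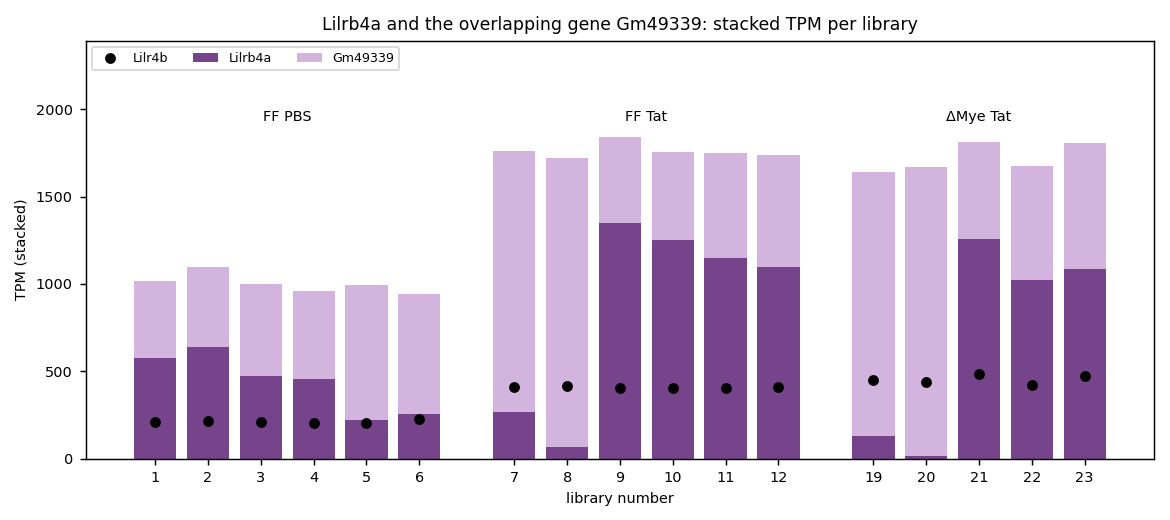
Stacked TPM (y axis) of Lilrb4a (dark) and the overlapping gene Gm49339 (light) in each library, numbered on the x axis, with Lilr4b as black points on the same axis. The dark share runs from 0.866% to 73.5% in the Tat libraries, while the stacked total stays between 1643 and 1840.2 TPM there and between 941 and 1099.9 TPM in FF PBS.

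The neighbouring Lilr4b, which encodes gp49A and lacks the inhibitory motif, was at 211 ± 8.54 TPM in FF PBS, 406 ± 4.83 TPM in FF Tat and 453 ± 24.8 TPM in ΔMye Tat (SD, n = 6, 6 and 5). It was higher in every Tat library than in any PBS library. The difference of ΔMye Tat from FF Tat was 0.15 ± 0.03 (SE) and turned to -0.07 after scaling. The ratio of the Lilrb4a and Gm49339 sum to Lilr4b was 4.75 ± 0.298, 4.33 ± 0.14 and 3.81 ± 0.109 in the same groups. Of the 31-base sequences of Lilrb4a 56.1% occur in other genes and 39.1% in Lilr4b, so reads may also have been divided between these genes, which was not tested.

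In FF PBS the order of the means was Trem2, Sirpa, Lilrb4a, Cd300lf, Cd300a, Cd300ld, Cd300lb, Pilra, Pirb and Trem1. The ranges overlapped between Trem2 and Sirpa, Sirpa and Lilrb4a, and Cd300ld and Cd300lb, and the other neighbours were separate. In FF Tat the order was Lilrb4a, Sirpa, Trem2, Cd300lf, Pilra, Cd300ld, Cd300a, Pirb, Trem1 and Cd300lb, with overlap between Lilrb4a and Sirpa, Cd300lf and Pilra, and Pirb and Trem1. In ΔMye Tat it was Lilrb4a, Sirpa, Trem2, Pilra, Cd300lf, Cd300ld, Cd300a, Pirb, Cd300lb and Trem1, with overlap of Lilrb4a and Sirpa alone.

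Over all 17 libraries, the tested genes whose log2(TPM + 0.1) had the highest Pearson r with each receptor gene were as follows, as a description, since the libraries fall into 3 groups and r follows the group means. For Cd300lb they were Coro1c, Rnf128 and Adam8 (0.998 each), and for Cd300a they were Ctsd, Pla2g15 and Tubb5 (0.999 each). Cd300ld was closest to Nceh1 (0.998), P4hb (0.998) and Rnh1 (0.997), and Cd300lf to Mtus1 (0.933), Tubb4b (0.926) and Grn (0.926). Trem2 was closest to Metrnl (0.998), its own adaptor gene Tyrobp (0.997) and Atp6v0d1 (0.997). Trem1 was closest to Lgals9 (0.991), Osm (0.991) and Slc25a22 (0.990), and Pilra to Cd38, Pla2g4a and Il12b (0.992 each). Sirpa was closest to Tgfbr1 (0.996) and Myof (0.994), and Pirb to Btbd1 (0.981), Zfp146 (0.977) and Hacd3 (0.976). Lilrb4a had no close partner, with Ctdspl2 (0.662), Mpp5 (0.637) and Sdr39u1 (0.549) at the top.

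Related receptors outside the 10 gave a wider view of the families. This list and those of adaptors and ligands below were also made with earlier results of these libraries known. Most genes named from them were picked for the size of their change, so their p-values are descriptions and not independent tests. Of 43 listed symbols 33 were in the table and 22 were tested. With Tat 5 of the 22 fell and 0 rose past the same limits, where 19.4% and 5.21% of all genes did. The other 17 did neither, and the median was -0.36. With the adjusted p alone (limma) 11 were lower and 6 higher, where 67.6% of all genes were lower and 17% higher. After scaling 3 were lower and 1 higher. Lair1, an inhibitory receptor for collagen, fell from 26.4 ± 1.98 to 1.53 ± 0.382 TPM (log2 difference -4.05, limma adjusted p = 2.47e-16). Pira2 fell from 89.9 ± 4.61 to 15.8 ± 0.942 TPM (-2.50, adjusted p = 1.07e-19, limma) and Lilra6, a related gene, from 24.3 ± 1.18 to 4.71 ± 0.596 TPM (-2.35, adjusted p = 1.57e-15, limma). Both genes and Pirb thus had lower values with Tat.

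In ΔMye Tat against FF Tat 9 of the 22 related receptors were higher and 3 lower, 10 were neither, and the median was 0.26, beside 38.8% higher and 8.87% lower among all genes. After scaling 5 were higher and 4 lower. Lair1 was at 5.32 ± 0.596 TPM (1.76 above FF Tat, adjusted p = 2.74e-09, limma) and Pira2 at 36.6 ± 2.28 TPM (1.20, adjusted p = 6.46e-13, limma). Mag, a sialic acid-binding lectin best known from myelin, rose from 1.59 ± 0.378 to 3.54 ± 0.177 TPM (1.14, adjusted p = 1.27e-06, limma). The falls were Treml2, a TREM-like receptor, from 15.0 ± 1.76 to 7.82 ± 0.714 TPM (-0.93, adjusted p = 3.95e-08), Siglec1 from 57.2 ± 5.28 to 38.4 ± 6.79 TPM (-0.59, adjusted p = 0.000282) and Cd200r4 from 148 ± 5.43 to 131 ± 6.66 TPM (-0.17, adjusted p = 0.00199), all by limma.

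Among the adaptor and signalling genes 34 of 35 were tested. With Tat 9 were lower, 2 higher and 23 neither, beside 19.4% lower and 5.21% higher among all genes. Their median was -0.57, and after scaling 3 were lower and 2 higher. Tyrobp, the gene of DAP12, fell from 2562 ± 140.2 to 715 ± 26.6 TPM (-1.84, adjusted p = 6.64e-20, limma), and after scaling the fall of -1.21 was below 3-fold. Fcer1g, the gene of the other ITAM adaptor, was at 2148 ± 46.4 TPM with PBS and 3083 ± 54.1 TPM with Tat (0.52, adjusted p = 1.19e-13, limma), below the fold threshold. The level of Fcer1g transcript was thus below that of Tyrobp with PBS and above it in FF Tat. Hcst, the gene of the adaptor DAP10, was at 74.5 ± 5.07 and 36.5 ± 2.9 TPM (-1.03, adjusted p = 6.34e-12, limma).

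Syk was at 134 ± 9.48 TPM with PBS and 142 ± 6.01 TPM in FF Tat (0.08, adjusted p = 0.244, limma). After scaling its difference was 0.72 (adjusted p = 8.33e-11, limma), still below the fold threshold. Ptpn6, the gene of SHP-1, was at 206 ± 11.6 and 161 ± 4.9 TPM (-0.35, adjusted p = 8.84e-08, limma), and its difference turned to 0.28 after scaling. Large falls were those of the Src kinase Fgr from 56.1 ± 2.24 to 8.66 ± 1.03 TPM and of Inpp5d, the gene of the phosphatase SHIP-1, from 40.9 ± 1.42 to 6.47 ± 0.757 TPM (-2.69 and -2.65, with adjusted p of 3.66e-18 and 4.33e-17, limma). The adaptor gene Sh2d1b1 was at 1.72 ± 0.154 TPM with PBS and 0.173 ± 0.0716 TPM in FF Tat. Since it passed the filter on low values only through FF PBS, its p is not given, although it is counted among the lower genes above. Malt1, a protease of the CARD9 pathway, rose from 34.7 ± 2.85 to 171 ± 14.4 TPM and the scaffold gene Lcp2 from 66.0 ± 4.49 to 235 ± 6.69 TPM (2.30 and 1.83, adjusted p = 6.32e-16 and 1.27e-18, limma).

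In ΔMye Tat against FF Tat 21 of the 34 adaptor and signalling genes were higher, 2 lower and 11 neither, where 38.8% of all genes were higher and 8.87% lower. Their median was 0.33, and after scaling 12 were higher and 7 lower. Tyrobp was at 1247 ± 41.3 TPM (0.80, adjusted p = 1.6e-12), Syk at 228 ± 30.8 TPM (0.68, adjusted p = 1.84e-07), Ptpn6 at 249 ± 14.0 TPM (0.62, adjusted p = 3.94e-10) and Hcst at 48.7 ± 4.48 TPM (0.41, adjusted p = 2.7e-05), each higher by limma. The Hcst call was lost after scaling. Fcer1g was at 3251 ± 127 TPM (0.08, adjusted p = 0.0171, limma). After scaling its difference was -0.15 and passed as lower (adjusted p = 0.00864, limma). Leaving out ΔMye Tat library 19 or 22 brought Fcer1g past the threshold as higher without scaling, with a lowest adjusted p of 0.0063. The largest rises were Fgr at 23 ± 1.33 TPM, the docking gene Dok2 at 28.1 ± 1.79 TPM and Card9 at 11.9 ± 1.64 TPM (1.40, 1.06 and 1.03, with adjusted p of 4.79e-12, 4.58e-11 and 6.61e-09, limma). Dok3 fell from 41.9 ± 1.03 to 36.3 ± 1.02 TPM (-0.21, adjusted p = 0.000341, limma). Sos1, at 3.69 ± 0.397 and 2.74 ± 0.649 TPM, passed narrowly (-0.44, adjusted p = 0.00975, limma) and kept its call in only 2 of the 17 fits that left out 1 library, those without FF Tat library 10 or ΔMye Tat library 19.

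Ligands and sheddases of these receptors were tested for 17 of 23 symbols, 22 of which were in the table. With Tat 5 were lower, 0 higher and 12 neither, where 19.4% of all genes were lower and 5.21% higher. Their median was -0.82, and after scaling 1 was lower and 2 higher. Without FF Tat library 9 the lower count was 3, since Mag and Pglyrp1 then missed the 3-fold limit. Cd47 was at 161 ± 6.64 TPM with PBS, 441 ± 13.9 TPM in FF Tat and 405 ± 19.7 TPM in ΔMye Tat. The difference for Tat was 1.45 (adjusted p = 1.93e-18, limma), below 3-fold as deposited and above it at 2.08 after scaling. The difference between genotypes was -0.12 (adjusted p = 0.00675, limma) and missed the threshold in 7 of the 17 fits that left out 1 library, those without FF Tat libraries 9, 10, 11 or 12 or ΔMye Tat libraries 19, 20 or 22, with adjusted p up to 0.0249.

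Pianp, a ligand of the PILRα receptor, fell with Tat from 19.7 ± 2.14 to 1.15 ± 0.355 TPM, Hmgb1, a proposed TREM1 ligand, from 91.1 ± 6.92 to 21.7 ± 2.55 TPM and Adam10, a protease that sheds TREM2, from 65.7 ± 4.9 to 17.4 ± 0.953 TPM (-4.02, -2.07 and -1.91, with adjusted p of 5.63e-12, 2.41e-15 and 1.97e-16, limma). After scaling Pianp alone of the 17 stayed past the threshold as lower. In ΔMye Tat 10 of the 17 were higher, 4 lower and 3 neither, against shares of 38.8% higher and 8.87% lower over all genes. Their median was 0.46, and after scaling 9 were higher and 6 lower. Pianp was at 2.68 ± 1.59 TPM (1.04, adjusted p = 0.0017, limma). Pglyrp1, a TREM1 ligand, was at 0.456 ± 0.256 TPM in FF Tat, with every library below 1 TPM, and averaged 1.69 ± 0.458 TPM in ΔMye Tat. It passed the filter only through FF PBS and ΔMye Tat, so its p is not given, although it is part of the counts of ligands and sheddases. Clu, a TREM2 ligand, fell from 2.62 ± 0.323 to 1.39 ± 0.249 TPM (-0.88, adjusted p = 1.23e-05, limma). Cd200 fell from 167 ± 7.11 to 152 ± 3.14 TPM (-0.14, adjusted p = 0.00182, limma). B2m, the light chain of MHC class I, fell from 11423 ± 351 to 10474 ± 342 TPM (-0.13, adjusted p = 0.00213, limma), but rose by 0.20 after quantile normalization.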

How the data were processed

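RNA-Seq was measured in 17 libraries of cultured PMs. The authors made the deposited TPM, listed by gene symbol, with Salmon from Ensembl transcripts of GRCm38. The listed TPM of a library sum to between 889318 and 903576, so some features were left out before deposition. TPM hold no read counts, so depth and counting error are unknown, and precision rests on the spread between libraries. The edgeR test of the study needs counts and was not repeated.

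Groups came from the sample labels. A gene entered the fit with 1 TPM or more in 5 or more libraries, which left 10451 genes and kept all 10 members. Log2(TPM + 0.1) was modelled in R 4.3.3 by limma 3.58.1 (3 groups in one fit, eBayes with trend), with Benjamini-Hochberg adjustment over all tested genes. The script was tested on simulated data. Tat comparisons required an adjusted p below 0.01 and more than a 3-fold change, and genotype comparisons the adjusted p alone. The study set the same limits for adjusted p and fold change, but after a normalization between libraries (TMM). The main fit used TPM without such a step, so its calls cannot be set directly against those of the study. The alternatives changed the pseudocount (0.5 or 1), the filter (none or 5 TPM), the scaling (median-ratio or quantile), the groups in the fit, the variance model (robust eBayes, array weights), the fold threshold or left out 1 library. The summed Lilrb4a and Gm49339 row was added after the data were seen.

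The members and all lists were chosen with earlier results of these data known. Named genes are the 10 members, the 3 largest rises and falls past the threshold in each list and comparison with a mean of at least 1 TPM, Tyrobp, Hcst, Fcer1g, Syk, Ptpn6, Cd47 and Ikbkb, and the 3 genes most like each member. One of these genes, and a further allele that all 3 groups share, are not reported here. Genes that passed the filter only through the group in which they are high are named without a p, but they remain in the counts. Genes named outside this rule (Gm49339, Lilr4b, Pilrb1, Pilrb2, Cd300c2 and Cd300ld3) were chosen after their values were seen. Coordinates, shared 31-base sequences and coding sequences are from GENCODE M21 on GRCm38, and promoters from RefSeq on GRCm38.p6. Motifs were searched on both strands. Python 3.11.15, numpy 2.4.6, pandas 2.3.3 and matplotlib 3.10.9 were used.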

Additional observations from a re-analysis of the deposited data

Results flagged for a closer look

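In 33 groups of 5 or 6 libraries (10 members and the Lilrb4a and Gm49339 sum in 3 groups each), Dixon's test singled out 2 libraries, and chance alone gives about 1 group in 20. Cd300lf was at 112 TPM in FF PBS library 1, against 123 to 127 TPM in the other 5 libraries. The sum of Lilrb4a and Gm49339 was 1840.2 TPM in FF Tat library 9, against 1722 to 1762 TPM in the other 5.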

How the results depend on the processing

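No paired analysis was possible because the groups share no replicate numbers. TPM give no depth, so the limit set by counting is unknown. Counts are given as lower and then higher. The receptor genes with Tat (5 and 1) became 3 and 2 after median-ratio scaling, also with Lilrb4a and Gm49339 summed. Their higher count was 0 with a pseudocount of 1, 0 with a filter at 5 TPM, which Trem1 does not pass, and 2 with no fold threshold. Between genotypes (2 and 5) the lower count was 1 with a filter at 5 TPM and 3 after median-ratio scaling with Lilrb4a and Gm49339 summed. With a fold change over 3 the counts were 0 and 1. Related receptors with Tat (5 and 0) became 3 and 1 after median-ratio scaling, 3 and 3 after quantile normalization, and 11 and 6 with no fold threshold. Between genotypes (3 and 9) the higher count was 5 after median-ratio scaling, and a fold change over 3 gave 0 and 1. Adaptors with Tat (9 and 2) became 3 lower after median-ratio scaling, 5 lower after quantile normalization, and 21 and 8 with no fold threshold. Between genotypes (2 and 21) they became 7 and 12 after median-ratio scaling, with 4 lower after quantile normalization, 1 lower with no filter, with a filter at 5 TPM and with only the compared groups, and 0 and 0 with a fold change over 3. Ligands with Tat (5 and 0) had 3 lower with pseudocounts of 0.5 and 1 and with a filter at 5 TPM, became 1 and 2 after median-ratio scaling and 2 and 1 after quantile normalization, and were 9 and 5 with no fold threshold. Between genotypes (4 and 10) the lower count was 2 with no filter and 2 after quantile normalization, and a fold change over 3 gave 0 and 1.

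With each library left out, the receptor genes stayed at 5 and 1 with Tat and 2 and 5 between genotypes. Related receptors ranged from 4 to 5 lower with 0 higher, and from 3 to 4 and 9 to 10 between genotypes. Adaptors stayed at 9 and 2, and ranged from 1 to 2 and 18 to 24 between genotypes, the lower count being 1 wherever Sos1 lost its call. Ligands ranged from 3 to 5 with 0 higher, and from 3 to 4 with 10 higher between genotypes.

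Median-ratio scaling turned the Tat differences of Cd300lf to 0.49, Siglec1 to 0.29 and Ptpn6 to 0.28. It turned the genotype differences of Cd300ld to -0.09, Pilra to -0.09, Lilr4b to -0.07, Lcp2 to -0.14 and Fcer1g to -0.15. Quantile normalization turned the genotype differences of Cd300ld to -0.09 and B2m to 0.20. With each library left out, that of Lilrb4a ranged from -1.55 to 0.18, the latter without ΔMye Tat library 20. The Tat call of Trem2 was lost after median-ratio scaling, that of Pirb after both scalings and that of Trem1 with a pseudocount of 1, and Pilra gained one after median-ratio scaling. The cause of these changes was not tested.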
